A study of Mus musculus with 4 samples.

Results

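The RNAs described here are the small RNAs of 32 to 40 nt that were recovered with PIWIL1 from adult mouse testis. They were chosen by length alone, as sequenced inserts of 32 to 40 nt lying before the 3′ adapter, and they numbered 351040 distinct sequences out of 2517272 distinct inserts of any length. The study made 2 small RNA libraries from RNA immunopurified with PIWIL1 from testes of wild-type C57BL/6J mice aged 10 weeks, and fractionated that RNA by size on a gel. RNA-seq of Piwil1-/- and Piwil1+/- testes, taken on postnatal day 23, belongs to the same study and is not used here. No control immunoprecipitation was analysed here, so the shares describe gel-sized RNA that came down with PIWIL1 and not an enrichment. The labels do not say whether the libraries came from separate animals, so the spread between them may be technical. With 2 libraries of 1 group a permutation test could not give a two-sided p under 0.5, so each difference between classes of RNA is set against the spread between the libraries (SD, n = 2) and has no p-value.

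PIWIL1, also called MIWI, is the PIWI protein of meiotic and haploid male germ cells in the mouse, and it carries pachytene PIWI-interacting RNAs (piRNAs). A piRNA is cut from a long single-stranded precursor, usually in front of a U, and the PIWI protein holds that 5′ end. The other end is made later: the exonuclease PNLDC1 shortens the 3′ end of the bound precursor until it has the length typical of that PIWI protein, and the methyltransferase HENMT1 then methylates the last sugar. RNAs longer than the usual piRNA are therefore of interest for their 3′ ends.

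The most abundant long RNAs are printed 5′ to 3′ with T for U, as in the sequenced reads, and with the bases from position 30 onwards in capitals, because a piRNA of the most usual sizes would end at base 29, 30 or 31. Letters A to C name the 3 most abundant, D the sixth and E the eighth. D and E do not start with U, and E also had many shorter forms.
RNA A: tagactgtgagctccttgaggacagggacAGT
RNA B: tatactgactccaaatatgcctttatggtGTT
RNA C: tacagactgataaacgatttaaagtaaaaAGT
RNA D: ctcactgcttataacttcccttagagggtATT
RNA E: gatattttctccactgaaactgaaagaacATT

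Further RNAs are printed because they can pair with themselves near the 3′ end, with the paired bases of both arms in capitals. F, G and J are the most abundant of their lengths (34, 36 and 40 nt), and H and I are among the 5 most abundant long RNAs that no shorter RNA of 29 to 31 nt shares a start with.
RNA F: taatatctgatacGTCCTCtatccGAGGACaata
RNA G: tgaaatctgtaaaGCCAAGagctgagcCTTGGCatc
RNA H: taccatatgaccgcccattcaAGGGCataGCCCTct
RNA I: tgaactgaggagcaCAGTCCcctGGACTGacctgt
RNA J: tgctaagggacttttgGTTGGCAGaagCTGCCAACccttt

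Among the sequenced inserts, long RNAs were a minor class with a steep length profile. The effect of the gel sizing on this profile was not tested. They made up 9.98% of the 4722785 insert reads of replicate 1 (exact Clopper-Pearson 95% interval 9.95% to 10.01%) and 9.86% of the 6322998 of replicate 2 (9.84% to 9.88%). These intervals cover counting error only, since copies made by PCR are not independent molecules. Most long RNAs lay at the short edge: 31 nt, just outside the class, held 22.2% ± 1.32 of all insert reads, 32 nt, just inside it, held 7.19% ± 0.303, and 33 nt held 1.59% ± 0.0553. The share then fell to 0.512% ± 0.0798 at 34 nt, 0.139% ± 0.0491 at 36 nt and 0.0460% ± 0.0289 at 40 nt. Of the long reads themselves, 72.5% ± 3.68 were 32 nt and 16.0% ± 0.420 were 33 nt, so values for the whole class are mostly values for those lengths. The libraries differed in the tail: at 37 nt replicate 1 held 0.124% and replicate 2 held 0.0635% of insert reads, and at 40 nt the shares were 0.0665% in replicate 1 and 0.0256% in replicate 2. The reads were 50 nt long and 10 nt of adapter had to be seen, so 40 nt is the longest insert this measure can show.

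The class was diverse, and its abundant RNAs mostly had shares within 2-fold between the libraries. Of the 351040 sequences, 270787 (77.1%) were read 1 time over both libraries. The 56976 found in both libraries were 16.2% of the sequences and carried 68.7% and 71.3% of the long reads in replicates 1 and 2. The 10 most abundant held 5.23% ± 0.449 of the long reads and the 100 most abundant held 12.9% ± 1.19. Of 1002 long RNAs with 100 or more reads over both libraries, 973 had shares of insert reads within 2-fold of each other. Their mean chi-square against equal shares of the long reads was 5.65, above the level of counting error alone.

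A start with U remained the rule in long RNAs, though less strictly than in the 29 to 31 nt RNAs. By reads, 87.2% ± 0.307 of long RNAs and 90.5% ± 0.0152 of 29 to 31 nt RNAs began with U, a difference larger than the spread between the libraries. Other first bases were C in 5.38% ± 0.0875 of long reads against 2.90% ± 0.0726 of 29 to 31 nt reads, and A in 4.61% ± 0.139 against 3.61% ± 0.0533. The loss was uneven over length. U led 88.3% ± 0.142 of 32-nt reads, 85.4% ± 0.111 of 33-nt, 87.4% ± 1.48 of 34-nt, 83.1% ± 1.38 of 36-nt, 76.5% ± 1.39 of 37-nt and 72.9% ± 0.598 of 40-nt reads. Adenine at position 10, which marks piRNAs made by the ping-pong cycle, stood in 30.03% ± 0.0728 of long reads and 30.8% ± 0.234 of 29 to 31 nt reads, close to each other though apart by more than that spread.

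Most long RNAs had the 5′ end of a usual piRNA. A long RNA is called an extension here when its first 29 nt were also the first 29 nt of a 29 to 31 nt insert in the same library. Extensions made up 82.0% of long reads in replicate 1 and 85.9% in replicate 2, the deeper library. With partners taken from either library the mean was 86.6%. Their share fell with length, from 87.9% ± 1.30 at 32 nt through 76.2% ± 2.56 at 34 nt and 51.5% ± 1.55 at 36 nt to 28.7% ± 2.14 at 40 nt. Counting each distinct sequence 1 time gave 62.7% ± 2.48, so the rarer long RNAs were less often extensions. The shorter partner was often itself rare: 21.9% of extension reads in replicate 1 and 18.8% in replicate 2 rested on fewer than 10 reads of 29 to 31 nt, and the median extension read rested on 63 and 91.

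First bases differed between extensions and the rest. An extension shares its first base with a 29 to 31 nt insert, so a U share near that of the shorter RNAs follows largely from how extensions were defined, and the values are a description. Extensions began with U in 89.8% ± 0.285 of reads and non-extensions in 73.9% ± 0.655. At 38 to 40 nt, where the class as a whole was lowest, extensions began with U in 91.0% ± 0.653 of reads and non-extensions in 65.3% ± 1.95. The fall of first-base U with length ran beside the falling share of extensions.

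The balance between short and long forms varied between 5′ ends, and most ends that were mostly long in one library were so in the other. Among 5′ ends (the same first 29 nt) with 100 or more reads of 29 to 40 nt, 5820 in replicate 1 and 8405 in replicate 2, the median share of reads that were 32 to 40 nt was 3.53% and 2.82%. A small set was mostly long: 359 ends in replicate 1 and 501 in replicate 2 had 50% or more of their reads at 32 to 40 nt, and these carried 42.3% and 41.5% of the long reads of all the ends counted. At the other side, 553 ends in replicate 1 and 1051 in replicate 2 had no long read. Of 5735 ends that passed the minimum in both libraries, 353 were mostly long in replicate 1, 371 in replicate 2 and 327 in both. The share differed between the libraries by a median of 1.07 percentage points, where most ends had a low share.

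The abundant long RNAs showed this range. RNA A had 7313 reads in replicate 1 and 11848 in replicate 2, or 1711 ± 230 per 1000000 insert reads, and 76.1% and 77.1% of the reads with its 5′ end were long. Its reads concentrated on a single length, with 73.2% and 74.3% of them at 32 nt. RNA B, at 896 ± 67.1 per 1000000, divided its 5′ end almost evenly between 31 nt (43.5% in replicate 1 and 49.6% in replicate 2) and 32 nt (43.8% and 40.5%). RNA C, at 794 ± 56.7 per 1000000, was like A in being mostly 32 nt. RNA D had 1288 and 2360 reads and was long in 89.9% and 91.8% of reads of its end. RNA E shows the opposite balance: 16.2% and 13.8% of its end's reads were long, yet the end was common enough, with 9425 and 15522 reads of 29 to 31 nt, to place its 32-nt form among the 10 most abundant.

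Long RNAs ended in U far more often than shorter ones. The last base was U in 66.5% ± 0.430 of long reads and 46.6% ± 0.801 of 29 to 31 nt reads. A last G was correspondingly scarce, at 5.27% ± 1.20 of long reads against 14.5% ± 1.37 of 29 to 31 nt reads. The share of U rose step by step over the lengths, from 35.9% at 29 nt through 45.2% at 30 nt and 57.5% at 31 nt to 67.5% at 32 nt and 68.3% at 33 nt, and fell to 55.7% ± 3.15 at 36 nt and 44.9% at 40 nt. All of RNAs A to E end in U, and RNAs A and C end in AGT. Among extensions the last base was U in 67.4% of reads in each library.

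The last base was compared with overlapping RNAs, to see whether the same base followed in other molecules. For each insert read at least 2 times, inserts that start elsewhere, hold the same 20 nt before the last base and run at least 2 bases past it were taken as a stand-in for the precursor. Among the reads of these repeated inserts, such overlap was found for 85.0% of long reads and 94.1% of 29 to 31 nt reads. The shares that follow are of the reads with overlap only. The last base occurred in an overlapping RNA in 73.5% ± 0.737 of long reads and 86.4% ± 1.17 of 29 to 31 nt reads. It was the commonest base there in 61.9% ± 1.49 of long reads and 79.7% ± 1.71 of 29 to 31 nt reads. In the long reads, U was the last base in 66.8% ± 0.177 and the overlapping RNAs' own base at that place in 38.9% ± 0.499; in the 29 to 31 nt reads these shares were 46.1% ± 0.774 and 34.3% ± 0.955. Where the last base occurred in no overlapping RNA, it was U in 79.7% ± 3.60 of long reads and 71.5% ± 3.43 of 29 to 31 nt reads. Such unmatched U ends were thus found in both classes. Long RNAs had more unmatched ends, and a larger part of those ends was U. At 31 nt the last base occurred in an overlapping RNA in 78.4% ± 1.34 of reads, and unmatched ends were U in 77.3% ± 3.51. At 32 nt these shares were 73.7% ± 0.829 and 79.4% ± 3.67. The remaining unmatched long reads ended in C (16.2% ± 4.64), A (2.88%) or G (1.18%). No genome was used, so copies of repeats and sequencing errors were not told apart from added bases, and whether any base was added after transcription was not tested.

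Stem-loops near the 3′ end were commoner in long RNAs than in 29 to 31 nt RNAs, above all at 34 to 37 nt. A stem was counted where the last 24 nt held 5 or more consecutive Watson-Crick pairs around a loop of 3 to 8 nt. It was found in 13.3% ± 0.0829 of long reads and 4.51% ± 0.0716 of 29 to 31 nt reads. The share was 3.51% at 29 nt, 6.15% at 31 nt, 9.02% ± 0.0158 at 32 nt, 19.5% ± 1.17 at 33 nt, 34.5% ± 3.88 at 34 nt, 38.3% ± 5.37 at 35 nt and 40.1% ± 10.5 at 36 nt, and lower again at 38 nt (24.1% ± 6.78) and 40 nt (9.23% ± 1.02). The wide spread at 36 nt came from replicate 2 having more, 47.5% against 32.7% in replicate 1, but both lay far above the 29 to 31 nt reads.

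At 31 to 38 nt stems were commoner at the 3′ side than at the 5′ side. At 31 nt, outside the class, the last 24 nt held one in 6.15% ± 0.0110 of reads and the first 24 nt in 4.16% ± 0.281. In the first 24 nt the same measure gave 4.36% ± 0.420 of long reads and 4.04% ± 0.164 of 29 to 31 nt reads, a difference smaller than the spread of the long RNAs. By length the first 24 nt held a stem in 4.24% ± 0.361 of 34-nt reads, 7.01% ± 0.283 of 35-nt, 8.22% ± 0.0678 of 36-nt and 8.62% ± 0.482 of 40-nt reads, so the share there was also higher from 35 nt on. At 40 nt it was close to the 9.23% of the last 24 nt, and in non-extensions of 38 to 40 nt the shares were 10.7% ± 1.86 in the first and 11.1% ± 2.13 in the last 24 nt. A mirrored form of the measure on the last 24 nt, in which the arms had to be the same bases and not complementary ones, gave 5.57% ± 0.0825 of long reads and 5.68% ± 0.0393 of 29 to 31 nt reads. Over single lengths from 32 to 40 nt the mirrored share lay between 3.84% at 36 nt and 5.96% at 33 nt, with no peak at the stem-rich lengths. Extensions of 33 to 37 nt held a stem in 25.2% ± 1.63 of reads and non-extensions of those lengths in 26.6% ± 3.63. Leaving out the 100 most abundant long RNAs gave 13.4% ± 0.0437 for the class, which is mostly 32 nt, and 23.2% ± 1.62 at 33 to 37 nt, against 25.5% ± 2.05 with them. At 34 to 37 nt a stem was in 35.8% ± 5.62 of reads and 22.7% ± 4.05 of distinct sequences, so abundant RNAs weighed more there.

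The geometry of the stems is described within the limit that a search of the last 24 nt keeps every arm near the 3′ end. In 33 to 37 nt reads with a stem, the mean arm was 5.52 pairs, the mean loop 4.77 nt and the unpaired tail 4.47 nt ± 0.0910, against a mean tail of 4.12 nt in 29-nt reads with a stem. Tails of 2 to 7 nt were commoner in the longer reads: 86.4% ± 1.27 had one, against 57.6% ± 0.527 in 29-nt reads. The change was gradual, with 63.8% at 30 nt, 68.3% at 31 nt and 77.0% at 32 nt. Arms of 6 or more pairs were found in 42.03% ± 0.633 of the stems of 33 to 37 nt reads and 7.99% of those of 29-nt reads. Between these lengths the share was 12.5% at 30 nt, 15.1% at 31 nt and 21.9% at 32 nt. Predicted folding was compared without the fixed stem rule. The mean minimum free energy of the last 24 nt, for sequences read at least 2 times, was -1.54 kcal/mol ± 0.0141 at 29 nt, -2.27 at 32 nt, -6.29 ± 0.273 at 34 nt, -8.41 ± 0.342 at 36 nt, -8.57 ± 0.205 at 38 nt and -7.82 ± 0.178 at 40 nt. A value of -4 kcal/mol or lower was reached by 7.64% of 29-nt reads, 23.5% of 32-nt reads, 78.6% ± 3.34 of 34-nt reads, 92.4% ± 2.64 of 36-nt reads, 92.3% ± 0.101 of 38-nt reads and 77.9% ± 4.58 of 40-nt reads. At 38 to 40 nt the mean folding energy stayed near its 36-nt level while the share with a stem was lower. The stem share counts all reads and folding only sequences read at least 2 times. Whether the measures part on the same reads was therefore not tested. The sequences folded held 88.0% of all reads at 29 nt, 45.5% at 36 nt, 19.8% at 38 nt and 3.39% at 40 nt. At the longest lengths folding thus describes few reads, and its change with length is not over like sets of reads.

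RNAs F to J show these stems. RNA F had 750 reads in replicate 1 and 1206 in replicate 2, an arm of 6 pairs, a loop of 5 nt and a tail of 4 nt, and 96.7% and 96.6% of the reads with its 5′ end were long. Its reads fell mostly at 33 nt (29.6% and 33.7%) and 34 nt (53.9% and 51.4%), both past the 3′ arm. RNA G, with 255 and 384 reads, had a folding energy of -10.8 kcal/mol, and its end's reads lay at 36 nt (55.1% and 57.1%) and at 37 nt (32.1% and 33.2%). RNA J was the most abundant 40-nt RNA but had only 3 and 11 reads, with an arm of 8 pairs and -14.8 kcal/mol.

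A stem within the 29 nt shared by short and long forms went with the balance between them. The search covered the last 24 of those 29 nt. Where fewer than 1% of an end's reads were long, 3.58% of ends in replicate 1 and 3.14% in replicate 2 held such a stem. Where 50 to 75% were long, 9.43% and 10.0% did, and where 75% or more were long, 29.3% and 28.4% did, over 147 and 211 ends. Most ends in every such range had no stem by this measure, and RNAs A to E have none in their last 24 nt. The stem rule does not capture all predicted folding. RNA A had a folding energy of -7.8 kcal/mol, near the -7.6 of RNA H, while RNAs B to E lay between -3.5 and 0. Whether a stem sets the length was not tested.

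Bases near the 5′ end also differed, outside the first base. Position 5 was C in 26.8% ± 0.624 of long reads and 16.8% ± 0.149 of 29 to 31 nt reads. The share of C5 was 12.5% at 29 nt, 16.3% at 30 nt, 21.2% ± 0.572 at 31 nt, 27.5% ± 0.490 at 32 nt and 28.1% ± 0.366 at 33 nt, and lower at 34 nt (21.5%), 35 nt (20.3%), 36 nt (17.2%) and 37 nt (20.02%). It was thus highest at 32 and 33 nt, while over the stem-rich 34 to 37 nt it was 20.4% ± 0.251, still above the 29 to 31 nt reads. ACT at positions 4 to 6, as in RNAs A, B and D, stood in 9.45% ± 0.717 of long reads against 3.09% ± 0.0578 of 29 to 31 nt reads. ACTG at positions 4 to 7 stood in 6.42% ± 0.643 against 1.45% ± 0.0390. ACT was commonest at 32 nt (10.4% ± 0.539) and 33 nt (9.26% ± 0.602). It stood at 4.79% ± 0.216 at 31 nt, 4.02% ± 0.0444 at 34 nt and 2.52% ± 0.271 at 36 nt. By distinct sequences ACT was in 4.38% ± 0.145 of long and 2.60% ± 0.0130 of 29 to 31 nt sequences. Abundant RNAs thus carried much of the difference between these classes. The difference in C at position 5 was also smaller by distinct sequences, at 23.4% ± 0.362 of long and 18.0% ± 0.0106 of 29 to 31 nt sequences. Without the 100 most abundant long RNAs it stood in 24.04% ± 0.348 of long reads.

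Non-extensions made up 1.59% ± 0.290 of all insert reads, and most resembled or overlapped a shorter insert in another way. These relations were not measured for other inserts, so they are not shown to be particular to non-extensions. Overlap between inserts was usual in these libraries. By the different rule of the last-base comparison, 94.1% of the reads of 29 to 31 nt inserts read at least 2 times had it. Of the non-extension reads, 31.5% ± 3.98 differed from the first 29 nt of a 29 to 31 nt insert by 1 mismatch, which can be a sequencing error. The first 20 nt of such an insert were shared by 14.9% ± 1.56, and the first 26 nt of a 26 to 28 nt insert by 8.08% ± 1.08. Others were shifted against a shorter piRNA: 28.98% ± 2.49 held the first 29 nt of a shorter piRNA at a later position, and 41.4% ± 3.06 had their own first 20 nt inside such a piRNA. Those that held a shorter piRNA at a later position began with U in 59.1% ± 1.53 of reads, the lowest of these relations. The relations overlap; together they covered 73.6% ± 1.004, and 23055 and 22590 reads had none of them, 4.26% ± 0.896 of long reads, with a first U in 74.8% ± 0.173.

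A few abundant non-extensions had no 29 to 31 nt form in either library. RNA H, of 36 nt, led with 229 reads in replicate 1 and 345 in replicate 2, or 51.5 ± 4.30 per 1000000, and its 5′ end had 342 and 447 long reads, 0 of 29 to 31 nt, and 0 and 1 of 26 to 28 nt. Its length was sharp, with 77.2% and 87.9% of the end's reads at 36 nt, where the tail after the 5-pair stem is 2 nt. RNA I, of 35 nt, had 96 and 84 reads and a tail of 6 nt. Of the 5 most abundant non-extensions 4 hold a stem by this measure. Of these 4, 2 are the same sequence with 1 more or 1 fewer U at the end. Over all non-extension reads the share with a stem was 16.6% ± 1.11, and at 33 to 37 nt it was 26.6% ± 3.63. Over all ends with 100 or more reads in both libraries, 6 had no 29 to 31 nt read in either. In 2 of these 6 a stem lay in the last 24 of the first 29 nt. Among all ends with 75% or more long reads, 29.3% in replicate 1 and 28.4% in replicate 2 held such a stem. The 6 are thus not shown to differ from other mostly long ends. None of the named sequences matched a RefSeq promoter window or miRNA hairpin of the mouse, and their positions in the genome were not determined here.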

How the data were processed

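The authors deposited small RNA read counts, 1 row per distinct 50-nt read with a column for each replicate, per the file headers. Bowtie, STAR and mm10 are named in the submitters' processing notes, and what each was used for is not given there. This table holds no alignment. Libraries were made from gel-sized RNA with a NEBNext small RNA kit, per the labels' protocols.

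The adapter was read from the data as the commonest 10 nt at the usual insert end. Inserts were the bases before its first exact match, found in 97.6% of 4836797 reads in replicate 1 and 98.7% of 6408274 in replicate 2. Reads without a match (1.95% and 1.27%) and reads of adapter only (0.409% and 0.0651%) were left out. Trimming by exact match loses reads with errors in the adapter, and chance matches would shorten an insert. Identical inserts were summed, and shares are of reads unless said otherwise. Values are means ± SD over 2 libraries.

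Named sequences were the 10 most abundant long RNAs, the 5 most abundant non-extensions, the most abundant of each length from 33 to 40 nt and the 3 ends with the highest long share; 10 of these are printed. Members and lists were chosen with earlier results of these data known, and the stem, folding, position 5, ACT and overlap measures after the reads were seen. Python 3.11.15, pandas 2.3.3, NumPy 2.4.6 and RNAfold 2.7.2 were used, and the scripts were tested on simulated reads. Alternatives were other adapter matches, read minimums, lengths, definitions of an extension and of a stem, and each library alone.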

Additional observations from a re-analysis of the deposited data

Results flagged for a closer look

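Inserts of 41 to 42 nt lie outside the lengths analysed and appeared when 8 nt of adapter were enough: 4235 reads in replicate 1, 0.0892% of insert reads, and 2228 in replicate 2, 0.0352%. These inserts began with U in 73.3% and 73.2% of reads.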

How the results depend on the processing

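The values below moved by more than the spread between the libraries under the setting named; none has a test. With inserts read 2 or more times in total, the class share was 7.43%, first-base U 89.7%, A at position 10 30.6%, extensions 95.4%, first-base U of non-extensions 80.8%, the median long share of 5′ ends 2.35%, the 10 most abundant 6.98%, last-base U of extensions 68.7% and stems 14.3%. At 33 to 40 nt these were 2.73%, 84.5%, 28.3%, 73.7%, 71.8%, 0.569%, 4.20%, 66.1% and 24.9%, in the same order. Counting distinct sequences gave first-base U 82.8%, A at position 10 28.2%, extensions 62.7%, first-base U of non-extensions 72.8%, last-base U of extensions 63.3% and stems 11.4%.

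With the first 25 nt shared, non-extensions began with U in 72.8%, and with partners taken from either library in 72.9%. Requiring 10 partner reads gave 60.9% extensions and 82.0% first-base U of non-extensions, and allowing 1 mismatch gave 89.0% and 68.4%. An adapter match with 1 mismatch gave last-base U of extensions as 67.36%, against 67.40%. Stems of 4 or more pairs gave 36.95%, 6 or more 4.33%, G-U pairs 38.02% and a 20-nt window 9.01% of long reads. At 33 to 37 nt against 29 to 31 nt these were 51.3% and 22.3%, 10.7% and 0.572%, 50.6% and 29.3%, and 16.6% and 3.12%, so long RNAs were higher under each.

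Each library alone lies within the spread by construction with 2 libraries, and gave 9.86% to 9.98% for the class share, 87.0% to 87.5% for first-base U, 82.0% to 85.9% for extensions and 13.3% to 13.4% for stems. Depth limits lengths above 37 nt most: at 40 nt, 28 and 31 sequences were read at least 2 times. The cause of the moves between settings was not tested.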

Other observations

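Long RNAs were searched only against RefSeq promoter windows and miRNA hairpins of the mouse. In one of 32851 promoter windows lay 510 of them, 0.133% and 0.137% of long reads in replicates 1 and 2. In one of 1005 hairpins lay 33, with 0.0293% and 0.0329%. Inserts of other lengths were not compared, so these shares are not shown to be particular to long RNAs. Inserts whose first 12 nt recur within them made up 0.0240% and 0.0245% of long reads. The 12 nt of the commonest such insert was held by 0.0479% and 0.0348% of long reads, and by 0.655% and 1.04% at 38 to 40 nt.

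The most abundant 38-nt RNA, with 91 and 101 reads, held one of the abundant 35-nt non-extensions (66 and 100 reads) from its base 4 to its last base. Both end at the same place, 5 nt after the same stem of 6 pairs, with different 5′ ends.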
